A study of Rattus norvegicus with 6 samples.

Results

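The genes of the opioid and cannabinoid systems were examined in the dorsal root ganglia (DRG) of rats with chronic constriction injury (CCI) of the sciatic nerve and of sham rats. The group was a list of 10 genes chosen by name, of 43350 gene rows in all, and each of the 10 had a row. It held 4 opioid receptor genes (Oprm1, Oprd1, Oprk1 and Oprl1), 3 opioid peptide precursors (Penk, Pdyn and Pomc), 2 cannabinoid receptors (Cnr1 and Cnr2) and Faah, which encodes an enzyme that breaks down the endocannabinoid anandamide. Male Sprague-Dawley rats, 6 to 8 weeks old when bought and habituated for 2 to 3 weeks, received either loose ligatures around the left sciatic nerve (CCI, n = 3) or exposure of the same nerve without ligation (sham, n = 3). No drug was given as a treatment, and both groups shared the anesthesia and the skin and muscle incision. The ipsilateral L4 to L6 ganglia were taken 11 days after surgery, with 1 rat per library according to the methods, while the sample labels speak of a pooled sample. Rats were randomized to the surgeries. Those that behaved as their surgery predicted in the behavioral tests formed the groups, from which the sequenced rats were drawn at random.

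Opioid receptors are coupled to inhibitory G proteins. In sensory neurons they are known to reduce calcium entry, open potassium channels and lower transmitter release, and they are the targets of endogenous enkephalins, endorphins and dynorphins and of opioid drugs. The cannabinoid receptors use the same class of G proteins, with Cnr1 best known in neurons and Cnr2 in immune cells. The peptides are cut from larger precursor proteins, so the RNA of a precursor measures neither the peptide nor its release.

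The libraries held 75423546 to 87615743 counts. Neuronal genes were abundant, with 4210 to 5197 CPM (counts scaled to the library total) for 5 pan-neuronal markers summed and 2169 to 2651 CPM for 8 nociceptor markers summed. All 5 genes known to be induced in injured sensory neurons (Atf3, Sprr1a, Gal, Npy and Vip) rose in CCI ganglia, with sums of 295, 145 and 132 CPM in CCI 1, 2 and 3 and of 9.05 to 10.8 CPM in the sham libraries. Skeletal muscle markers summed to 387 CPM in Sham 1 and to between 8.88 and 49.5 CPM in the other 5 libraries. Leaving out Sham 1 changed no call among the 10 genes.

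A gene was called at an unadjusted p under 0.05 where its log2 fold change was also 0.58 or more up or down, the criteria of the study's methods, in edgeR's quasi-likelihood test. Of the 26663 rows with a mean of at least 0.5 FPKM (a level scaled to row length and library total), 3.83% were called. The 7 members among them gave 1 call, Oprk1, which fell in CCI ganglia, as did 1.26% of those rows. Pdyn, Pomc and Cnr2 lay below that level and were tested among 29070 rows kept by a filter on counts, where Pdyn rose, as did 2.76% of rows. None of the 10 genes reached a Benjamini-Hochberg adjusted p under 0.05 in edgeR's test, a level reached by 0.0938% of the first set of rows and 0.0826% of the second. DESeq2 on the same counts gave adjusted p-values of 0.00602 for Oprk1 and 0.000303 for Pdyn, and edgeR's exact test gave adjusted p-values of 0.319 and 0.000543. The shares of all rows at an adjusted p under 0.05 in these other tests are not given here. Without a limit on the fold, 3 of the 7 members passed an unadjusted p under 0.05, all with lower CCI values (Oprm1, Oprk1 and Cnr1), beside 5.18% of the 26663 rows in that direction and 10.7% in either. CCI and sham CPM did not overlap for 4 of the 7, again all lower in CCI, beside 8.70% of rows. Pdyn, outside the 7, did not overlap either but was higher in CCI, and the share of the 29070 rows in that direction is not given here. The median log2 fold change of the 7 was −0.29, beside 0.0055 for all 26663 rows. Over all 10 genes, tested among the 29070 rows, the median was −0.13, beside 0.0058 for those rows. Pdyn, Pomc and Cnr2, which the median of the 7 leaves out, all had fitted values above 0.

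**Figure D1:**
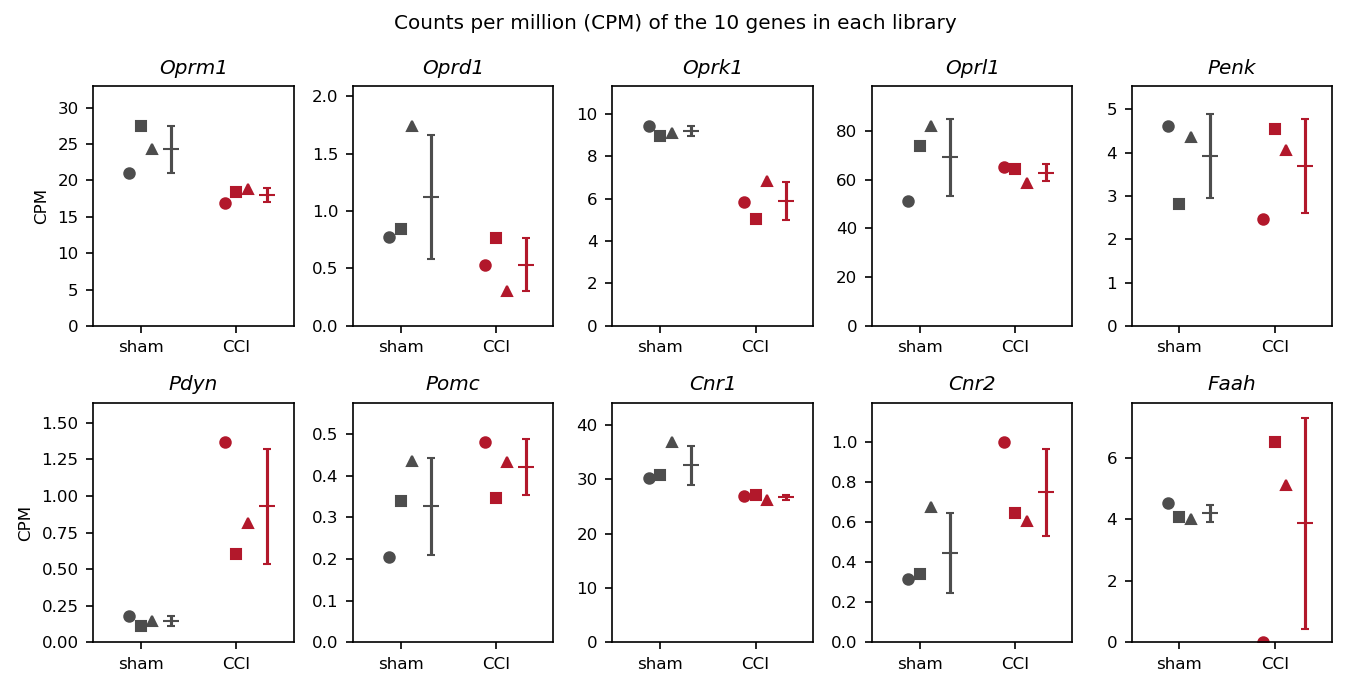
CPM of the 10 genes in each library, 1 panel per gene with its own linear axis from 0. Circles, squares and triangles are replicates 1, 2 and 3 of the sham (grey) and CCI (red) groups, and the bars beside them are mean ± SD (n = 3). The CCI points lie below all sham points for Oprm1, Oprd1, Oprk1 and Cnr1 and above them for Pdyn, and Faah has a CCI point at 0.

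Among the receptors, Oprk1 encodes the kappa opioid receptor, the main receptor of dynorphin, and lies on chromosome 5 from 13744658 to 13760305 on the minus strand in the authors' coordinates. Its counts were 473, 406 and 520 in CCI 1, 2 and 3 and 828, 711 and 753 in Sham 1, 2 and 3. In CPM these were 5.82, 5.03 and 6.82 against 9.42, 8.95 and 9.10. Every CCI library lay below every sham library, and the sham libraries lay close together. The means were 5.89 ± 0.899 CPM in CCI and 9.16 ± 0.235 CPM in sham (SD, n = 3), a 1.55-fold lower level. The log2 fold change was −0.64 (SE 0.14, 95% confidence interval −0.97 to −0.30) with an adjusted p of 0.199 in edgeR's quasi-likelihood test. Without CCI 2, the lowest library, the log2 fold change was −0.53, under the limit of 0.58. In bulk ganglia, fewer cells of a type and less RNA per cell cannot be told apart.

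A second row with the Oprk1 symbol, 956 bases long, lies 793 bases beyond the 3′ end of the gene (chromosome 5, 13742909 to 13743864). It held 2.12, 1.66 and 2.01 CPM in the CCI libraries and 2.98, 3.53 and 2.48 CPM in the sham libraries. These groups did not overlap either, and the log2 fold change was −0.64 (SE 0.20, adjusted p = 0.346 in edgeR's test). The row was not assigned a strand or a gene type by the authors.

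Oprm1 encodes the mu opioid receptor, the main target of morphine, and covers 43454803 to 43704948 of chromosome 1 on the plus strand. It held 16.9, 18.4 and 18.8 CPM in the CCI libraries and 21.0, 27.5 and 24.4 CPM in the sham libraries. All CCI values were below all sham values, with the closest pair at CCI 3 and Sham 1. Its difference, 1.35-fold or −0.43 on the log2 scale (SE 0.11, 95% confidence interval −0.70 to −0.16, adjusted p = 0.263 in edgeR's test), was short of the fold limit. Transcripts of the opposite strand lie within the gene, among them a row of 9781 bases with 3922 to 10139 counts per library. Whether strand was used in counting is not given in the sources used here, so reads of the gene and of such rows may not have been kept apart. A short row of 515 bases with the same symbol inside the gene held 26, 92 and 86 counts in CCI and 46, 62 and 51 in sham, which overlapped.

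Oprd1 encodes the delta opioid receptor, known as a receptor of enkephalins, and spans 150288126 to 150323063 of chromosome 5 on the minus strand. Its row was thinly covered, with 43, 62 and 23 counts in CCI and 68, 67 and 144 in sham. In CPM the highest CCI library, at 0.768, was only just below the lowest sham library, at 0.773, and Sham 3 stood apart at 1.74. On the log2 scale the difference was −1.07 (SE 0.48, 95% confidence interval −2.23 to 0.09, adjusted p = 0.508 in edgeR's test) and was not called. Without Sham 3 it was −0.60.

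More reads listed under the Oprd1 symbol lay outside this row than in it. A row of 1995 bases with the same symbol, 1160 bases past the 3′ end of the gene (chromosome 5, 150284971 to 150286965), held 175, 199 and 189 counts in CCI and 332, 359 and 253 in sham. The groups did not overlap, and the log2 fold change of −0.68 (SE 0.19, adjusted p = 0.293 in edgeR's test) passed the limits for a call. With both Oprd1 rows summed, the log2 fold change was −0.76 (SE 0.15, adjusted p = 0.168 in edgeR's test), which was also a call. This sum was an alternative chosen after the values had been seen. The authors assigned the second row no strand or gene type, and whether its reads belong to Oprd1 was not tested. Summing changed neither the call of Oprk1 (−0.64) nor that of Oprm1 (−0.40).

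Oprl1 encodes the nociceptin receptor, which shares sequence with the classical opioid receptors but does not bind their peptides well. It was the opioid receptor gene with the highest mean level, on chromosome 3 from 177225737 to 177239099. The CCI libraries held 65.2, 64.2 and 58.8 CPM and the sham libraries 51.4, 73.9 and 82.0 CPM. The CCI values all lay within the sham range. Its log2 fold change was −0.14 (95% confidence interval −0.54 to 0.26, adjusted p = 0.846 in edgeR's test), and it rested on the spread of the sham group, being 0.0042 without Sham 3 and −0.31 without Sham 1. Without Sham 1, the library with the most muscle RNA, the unadjusted p of Oprl1 was 0.0105 in edgeR's test (adjusted p = 0.374). The fold stayed short of the limit there.

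**Figure D2:**
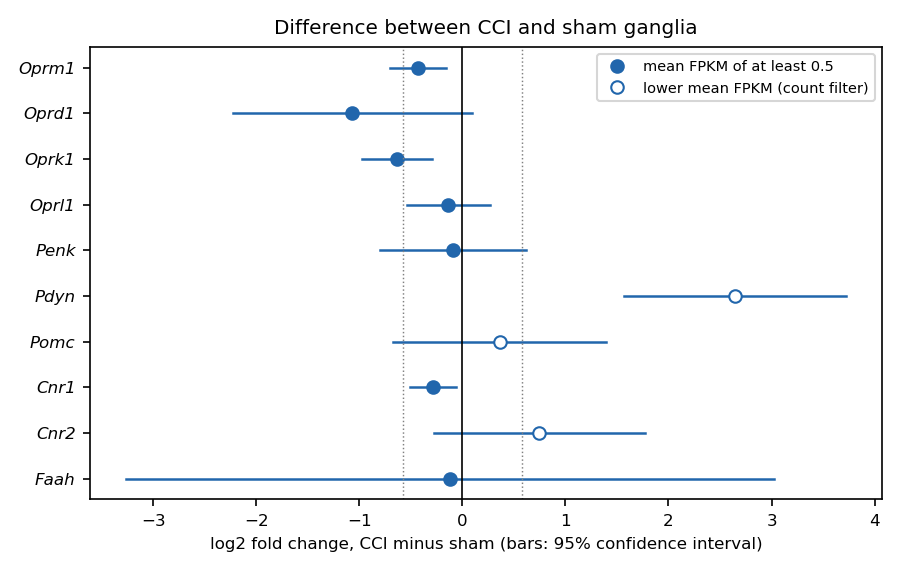
Log2 fold change (CCI minus sham) of each of the 10 genes with its 95% confidence interval, on a linear axis. Filled points are genes with a mean FPKM of at least 0.5, open points are genes of lower mean FPKM tested under the count filter, and dotted lines mark the limits of 0.58. The intervals of Oprm1, Oprk1 and Cnr1 lie below 0, that of Pdyn lies above it, and the interval of Faah is the widest.

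Levels per length, in FPKM, let the rows of the opioid receptor genes be set side by side. The 4 opioid receptor genes summed to 8.94, 8.95 and 8.98 FPKM in CCI 1, 2 and 3 and to 9.88, 11.95 and 12.8 FPKM in Sham 1, 2 and 3. The CCI sums were nearly equal and lay below all sham sums, which were more spread. Oprl1 made up 51.6%, 51.0% and 46.7% of this sum in the CCI libraries and 36.9%, 43.3% and 44.9% in the sham libraries, so its share was higher in each CCI library although its own level overlapped between groups. Oprk1 made up 23.0%, 19.9% and 27.1% in CCI and 33.7%, 26.2% and 24.9% in sham, with overlap. Oprm1 made up between 21.5% and 26.0% in the 6 libraries and Oprd1 at most 8.63%. These shares are descriptions without a test, and those of Oprd1, Oprk1 and Oprm1 leave out the second row of each symbol. They also depend on the row lengths behind the FPKM, which differ greatly. In CCI, Oprl1 had means of 62.7 CPM and 4.46 FPKM, and Oprk1 had means of 5.89 CPM and 2.09 FPKM. The libraries were made from total RNA, and the part of unspliced RNA in these shares was not tested.

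**Figure D3:**
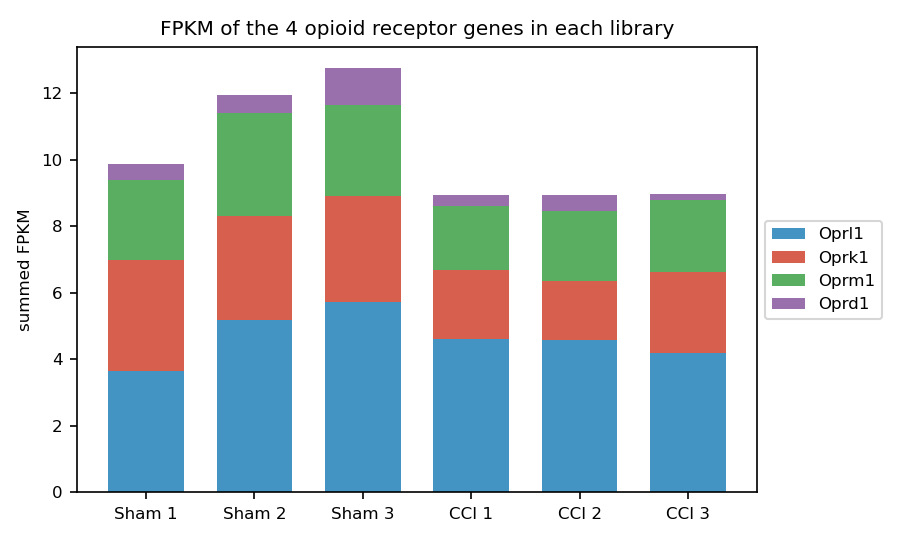
Stacked bars of the FPKM of Oprl1, Oprk1, Oprm1 and Oprd1 in each library, on a linear axis from 0. The CCI bars end at 8.94 to 8.98 FPKM and the sham bars at 9.88 to 12.8 FPKM, and Oprl1 is the largest segment in all 6 libraries.

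Over the 6 libraries the mean FPKM of the 10 genes ran from Oprl1 at 4.65 and Cnr1 at 4.49 through Oprk1 at 2.65, Oprm1 at 2.41, Penk at 2.04 and Faah at 1.03 to Oprd1 at 0.525, Pomc at 0.299, Pdyn at 0.199 and Cnr2 at 0.181. Neighbours in this order had overlapping ranges, with the single exception of Cnr1, whose lowest library (4.005 FPKM) lay above the highest of Oprk1 (3.33 FPKM). Of the 10 genes, 6 lie on chromosome 5.

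Of the peptide precursors, Pdyn, which encodes prodynorphin, had the largest difference of the 10 genes and moved opposite to the receptor gene Oprk1. It lies on chromosome 3 from 122194329 to 122206671 on the minus strand. The CCI libraries held 111, 49 and 62 counts and the sham libraries 16, 9 and 12 counts. In CPM these were 1.36, 0.607 and 0.813 against 0.182, 0.113 and 0.145. All CCI libraries lay well above all sham libraries, and CCI 1, which also had the highest sum of injury-induced neuronal genes, was the highest. Between CCI 2 and CCI 3 the order turned, as CCI 3 held more Pdyn but the lower sum of those genes. The part of the injury-induced genes in the difference was not tested. The level was 0.928 ± 0.392 CPM in CCI and 0.147 ± 0.0343 CPM in sham (SD, n = 3), 6.25-fold higher by the fitted fold. On the log2 scale this was 2.64 (SE 0.45, 95% confidence interval 1.57 to 3.72) with an adjusted p of 0.117 in edgeR's quasi-likelihood test.

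Even in CCI ganglia Pdyn stayed scarce, at no more than 0.510 FPKM in any library. Its mean of 0.199 FPKM kept it out of the first set of rows, and it met the count filter through its CCI libraries. In the fit of all 35757 rows with a count it was called as well, at a log2 fold change of 2.65 (adjusted p = 0.137 in edgeR's test). Without CCI 1 the log2 fold change was 2.26 and without any other single library it was between 2.49 and 2.88, a call each time. By an exact two-sided permutation test of its CPM over the 6 libraries p was 0.1, the smallest value that 3 against 3 samples allow.

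The start of the gene is shown because Pdyn had the largest difference, beside that of Pomc, the other precursor below 0.5 FPKM with a sequence at hand. RefSeq promoter sequences (assembly GRCr8, not the build of the count table) run from 250 bases before to 50 bases after the start, and were at hand for 6 of the 10 genes. Capitals mark the motif TATAAA, searched on both strands.
Pdyn (chr3:137366454-137366753, minus strand): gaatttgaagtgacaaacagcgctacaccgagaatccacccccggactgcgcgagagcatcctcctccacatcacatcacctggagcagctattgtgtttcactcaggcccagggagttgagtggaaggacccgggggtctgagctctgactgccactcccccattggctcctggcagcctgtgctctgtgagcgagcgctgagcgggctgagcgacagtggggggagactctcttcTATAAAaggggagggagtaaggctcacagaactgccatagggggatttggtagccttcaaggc
Pomc (chr6:32659103-32659402, plus strand): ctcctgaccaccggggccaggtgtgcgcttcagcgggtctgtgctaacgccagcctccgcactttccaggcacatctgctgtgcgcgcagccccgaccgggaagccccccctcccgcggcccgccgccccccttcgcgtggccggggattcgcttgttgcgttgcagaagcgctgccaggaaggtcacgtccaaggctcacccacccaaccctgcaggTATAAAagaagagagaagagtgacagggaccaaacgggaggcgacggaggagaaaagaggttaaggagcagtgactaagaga

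The motif lay at positions 238 to 243 of the Pdyn sequence and 219 to 224 of the Pomc sequence, and 14.2% of the 33469 promoters in the RefSeq table held it. The letters TGANTCA (held by 7.33% of promoters), TGACGTCA (1.83%), TGACG (21.2%) and CACGTG (6.42%) were in neither window. CACGTG stood in the Oprd1 promoter at positions 169 to 174. Among promoters of Cnr2, TATAAA stood at positions 97 to 102 of one and 85 to 90 of another. TGACG stood at positions 51 to 55 of a further Cnr2 promoter. These are matches of letters, and nothing in the count table bears on binding there.

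Penk encodes proenkephalin, the source of the enkephalins that act on delta and mu receptors, and lies on chromosome 5 from 17056419 to 17061837. It held 2.47, 4.55 and 4.07 CPM in the CCI libraries and 4.62, 2.82 and 4.35 CPM in the sham libraries. The groups overlapped, with CCI 1 and Sham 2 low. Their difference was −0.09 on the log2 scale (SE 0.30, 95% confidence interval −0.80 to 0.62, adjusted p = 0.953 in edgeR's test), so a difference of the size found for Oprk1 lay within the interval.

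Pomc encodes proopiomelanocortin, the source of beta-endorphin, and lies on chromosome 6 from 28382962 to 28388967. It held 39, 28 and 33 counts in CCI and 18, 27 and 36 counts in sham, which overlapped. The log2 fold change was 0.36 (95% confidence interval −0.67 to 1.39, adjusted p = 0.852 in edgeR's test), and the exact permutation p was 0.3. Of 4 pituitary markers, Prl and Cga were at 0 in all 6 libraries and the sum was at most 0.148 CPM in both groups.

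Cnr1, the cannabinoid receptor known from neurons, lies on chromosome 5 from 49309034 to 49333056 on the plus strand. The CCI libraries held 26.8, 27.0 and 26.1 CPM and the sham libraries 30.2, 30.7 and 36.7 CPM. The CCI libraries lay within 1 CPM of each other and below all sham libraries, of which Sham 3 was the highest. The log2 fold change was −0.29 (SE 0.09, 95% confidence interval −0.51 to −0.07, adjusted p = 0.347 in edgeR's test), short of the fold limit. It was −0.19 without Sham 3.

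Beside the values of these neuronal receptor genes, nociceptor markers had a median log2 fold change of −0.15, with 0 of 8 called. Markers of large neurons had a median of −0.24, with sums of 3719 to 4040 CPM in CCI and 4769 to 5271 CPM in sham, which did not overlap, and 1 of 5, Pvalb, called lower. The part of these markers in the receptor values was not tested. When the libraries were scaled to the geometric mean of the nociceptor markers, an alternative chosen after seeing the data, the log2 fold changes were −0.54 for Oprk1, −0.32 for Oprm1 and −0.19 for Cnr1, and no member among the 7 was called. That scaling moved the median of all rows to 0.107. Scaled to pan-neuronal markers, of which 0 of 5 were called (median 0.042), the values were −0.60, −0.38 and −0.24 and Oprk1 was called. Those markers moved in both directions, with log2 fold changes from −0.39 for Snap25 to 0.31 for Tubb3.

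Cnr2, known from macrophages and other immune cells, was near the lower limit of what the libraries resolve. It lies on chromosome 5 from 154260062 to 154268126 and held 81, 52 and 46 counts in CCI and 28, 27 and 56 counts in sham. In CPM, CCI 1 was the highest at 0.996 and Sham 3, at 0.677, lay above CCI 2 and CCI 3. A log2 fold change of 0.75 was fitted (SE 0.43, 95% confidence interval −0.28 to 1.77, adjusted p = 0.639 in edgeR's test), and the exact permutation p was 0.3. Without Sham 3 it was 1.18 (adjusted p = 0.547 in edgeR's test), which met the limits for a call. Macrophage markers summed to 138, 122 and 97.0 CPM in CCI 1, 2 and 3 and to 76.7, 75.4 and 97.4 CPM in Sham 1, 2 and 3, with 3 of 8 called higher (Cd68, Csf1r and Cx3cr1). For the sum of these markers, as for Cnr2, CCI 1 and Sham 3 were the top libraries of their groups. The part of these markers in the Cnr2 values was not tested.

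Faah, the hydrolase of anandamide (chromosome 5, 134852875 to 134871775, minus strand), could not be read from its row alone. Its counts were 0, 525 and 389 in CCI and 398, 323 and 333 in sham. CCI 1 was listed at 0 while the other 5 libraries held more than 300 counts each. A copy of the gene, Faahl, 503879 bases away on the same chromosome, held 423, 0 and 144 counts in CCI and 0 in every sham library. Reads of near-identical genes may be split between their rows in counting. Single zeros of this kind were not restricted to CCI 1, since each library had between 5 and 10 rows at 0 that held at least 300 counts in every other library, and among those of CCI 1 was LOC103690007, a neighbour of Faah.

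From the Faah row alone the log2 fold change was −0.12 with an SE of 1.31 (adjusted p = 0.986 in edgeR's test), and without CCI 1 it was 0.46. With Faah and Faahl summed, which was chosen after seeing the data, the libraries held 5.20, 6.50 and 6.99 CPM in CCI and 4.53, 4.07 and 4.03 CPM in sham. The summed groups did not overlap, and all CCI libraries were higher. Summed, the log2 fold change was 0.57 (SE 0.16, adjusted p = 0.279 in edgeR's test), 1.48-fold higher and just under the fold limit.

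**Figure D4:**
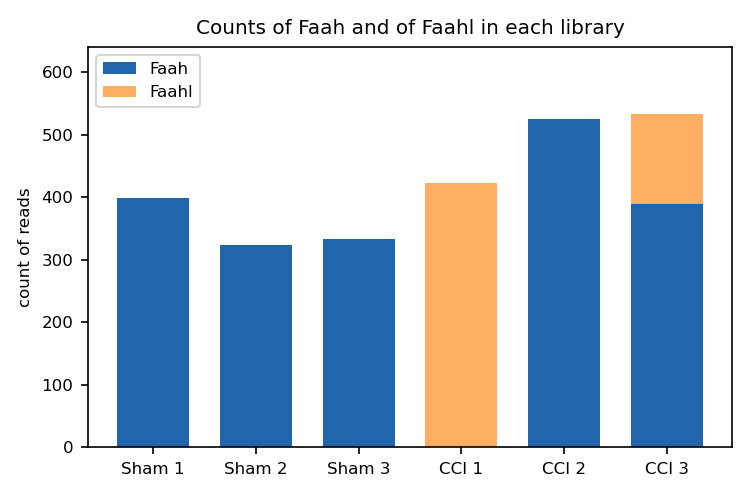
Stacked counts of reads on the Faah row (blue) and the Faahl row (orange) in each library, on a linear axis from 0. In CCI 1 all 423 counts lie on Faahl, in CCI 3 the counts are split, and the 3 sham libraries have counts on Faah alone.

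The genes around these receptors and peptides were described from a list of 68 symbols, covering peptide processing, endocannabinoid synthesis and breakdown, receptor partners, inhibitory G proteins, desensitization and effectors. Of these, 66 had a row and 63 were tested. None was called in edgeR's test, beside 3.83% of all rows tested, while 11 passed an unadjusted p under 0.05 (7 higher and 4 lower), beside 10.7% of rows. DESeq2 also called none, beside 754 rows called higher and 360 lower of 26663. It gave 11 partner genes at an unadjusted p under 0.05 and 2 at an adjusted p under 0.05. The shares of all rows at these p-values with DESeq2 are not given here. The median log2 fold change of the 63 was −0.013.

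Among the ligand genes, Pnoc, which encodes the precursor of nociceptin, the ligand of Oprl1, was too low to be tested, at 0.537 ± 0.0767 CPM in CCI and 0.425 ± 0.190 CPM in sham (SD, n = 3). None of the 11 genes of peptide processing and breakdown was called. Their most abundant members, Cpe, a carboxypeptidase that trims peptide precursors, and Scg5, a partner of a prohormone convertase, had log2 fold changes of −0.08 and −0.09. The processing genes summed to 950.1 to 960.5 CPM in CCI and 952.1 to 976.9 CPM in sham, with overlap. The 6 genes of endocannabinoid synthesis gave no call either, with 0.01 for Abhd4 and −0.07 for Gde1.

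In endocannabinoid breakdown and transport, 6 of 7 genes were tested and none was called. Abhd12, a hydrolase of the endocannabinoid 2-AG, held 94.0, 96.0 and 102 CPM in CCI and 128, 117 and 123 CPM in sham, with no overlap and the sham libraries higher. Its log2 fold change was −0.33 (SE 0.06, adjusted p = 0.135 in edgeR's test). Fabp5, a carrier of fatty acids that also binds anandamide, held 124, 100 and 83.2 CPM in CCI and 67.7, 74.0 and 70.7 CPM in sham, with no overlap and CCI 1 the highest. Its log2 fold change was 0.53 (SE 0.14, adjusted p = 0.267 in edgeR's test), just short of the fold limit.

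Downstream of the receptors, the 8 inhibitory G protein genes had a median log2 fold change of 0.12, with 0.27 for Gnb1 and 0.12 for Gnai2. Gnai1 was singled out after its values were seen, as the gene with the lowest log2 fold change of that list. It held 38.6, 43.6 and 39.8 CPM in CCI and 47.5, 48.9 and 47.9 CPM in sham. Its groups did not overlap, and its log2 fold change was −0.24 (adjusted p = 0.274 in edgeR's test). Gnao1 and Gnaz also lay below 0, at −0.013 and −0.026. Gnb1 held 399 CPM in Sham 2 and between 676 and 733 CPM in the other 5 libraries. The 13 tested genes of arrestins, receptor kinases and RGS proteins, which end receptor signalling, had a median of −0.04, with −0.06 for Rgs4 and −0.14 for Rgs10. The 12 effector genes had a median close to 0. Of these, Cacna1b, which encodes the pore of the N-type calcium channel that opioid receptors inhibit, held 360, 346 and 328 CPM in CCI and 307, 275 and 259 CPM in sham. Its groups did not overlap, and its log2 fold change was 0.30 (SE 0.08, adjusted p = 0.261 in edgeR's test), beside −0.05 for Cacna1a. The receptor partner Cnrip1, which binds the cannabinoid receptor Cnr1, was nearly equal between groups, at 0.0059 on the log2 scale, and its row joins reads of 3 other symbols.

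**Figure D5:**
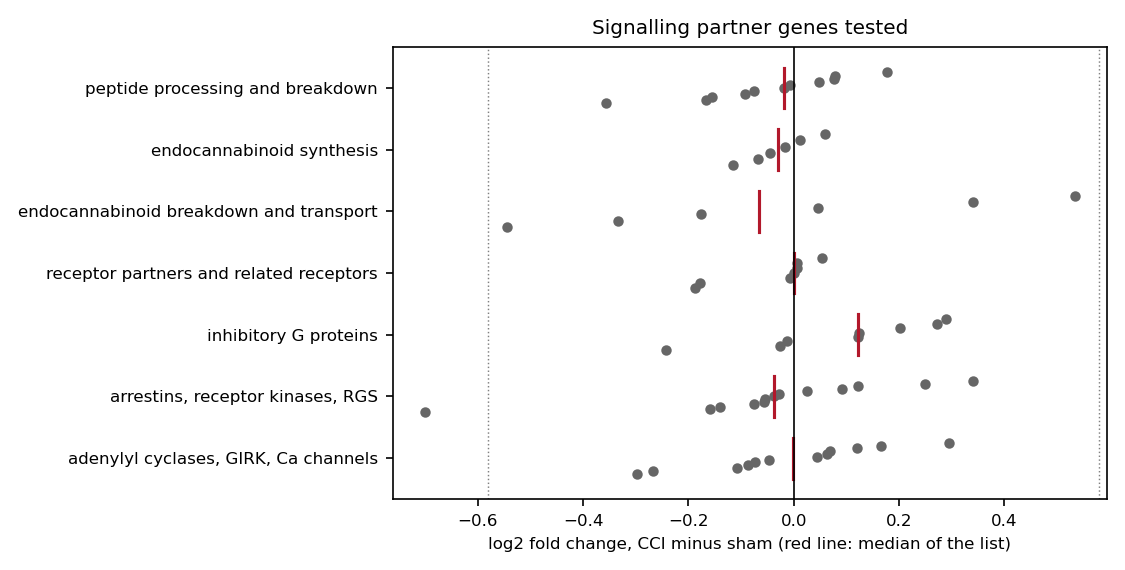
Log2 fold change (CCI minus sham) of the 63 partner genes tested, 1 grey point per gene and 1 line per list, on a linear axis. Red lines are list medians and dotted lines mark the limits of 0.58, and no gene is called.

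The genes whose log2 CPM followed a member most closely over the 6 libraries were sought among 13091 protein-coding candidates, by Pearson's r, as a description, for the 6 members with a mean count of at least 100 that were tested. They were Prdm4 and RGD1304884 for Oprm1, Ppp2r5e and Pomgnt2 for Oprk1, Sez6l2 and Aldoc for Oprl1, Pde5a and LOC103689951 for Penk, Fgf9 and Tubb4b for Cnr1, and Impad1 and Aldh1a3 for Faah. All had r of at least 0.988. With 6 libraries such values are common, since between 115 and 414 candidates had r above 0.9 with a given member. The points share their libraries and depth, and those of Faah rest on the library listed at 0.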

How the data were processed

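Total RNA of DRG was depleted of ribosomal RNA and sequenced in pairs with a dUTP kit by the authors, who mapped reads with HISAT and assembled them with StringTie 1.3.0, naming the genome V101. The deposited counts are whole reads per gene row, without normalization. The deposited FPKM values, made by the authors, are normalized to library total and row length, and list rows without a count at 0.0001.

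Groups follow the labels. Counts were tested with edgeR 4.0.16 (quasi-likelihood, TMM factors of 0.988 to 1.01, trended prior) over 26663 rows averaging 0.5 FPKM or more, with Benjamini-Hochberg adjustment. Values of Pdyn, Pomc and Cnr2 come from the 29070 rows kept by filterByExpr. CPM use TMM-scaled totals. The 10 genes, the partner list and the marker lists were chosen with earlier results of these data known. Named partners are the 2 with the highest mean FPKM in each list and any called, of which 1 is not reported here. No p-value was computed over a list. The p-values of edgeR's test set the difference between CCI and sham against the spread between libraries, estimated with a prior from all rows. Each library was of 1 rat according to the methods but of a pooled sample according to the labels. No numeric sample column was unused (0). The test was checked on simulated counts.

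Alternatives were limma 3.58.1 on log2(FPKM + 1) and on log2(FPKM + 0.1), DESeq2 1.42.0, edgeR's exact test, other scalings, other filters, a replicate block and leaving out each library. Added after seeing the data were sums of rows of 1 symbol, Faah with Faahl, and scaling to neuronal or nociceptor markers.

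Other marker lists, summed in CPM in CCI and sham, gave 2180 to 2263 and 2056 to 2177 for satellite glia (none called), 6261 to 8640 and 7753 to 8742 for Schwann cells (none), 1055 to 1732 and 1563 to 1680 for fibroblasts (none) and 50.1 to 68.9 and 54.9 to 73.0 for endothelium (none). T cell markers gave 14.7 to 19.9 and 11.4 to 11.8, almost all Cd4, which was called higher, with Cd3d, Cd3e and Cd3g near 0. B cell markers gave 0.840 to 1.41 and 1.15 to 1.49 (none tested), neutrophils 7.50 to 10.4 and 5.56 to 16.6 (none called) and adipocytes 1.03 to 2.59 and 0.326 to 4.50 (none). Muscle markers gave 4 of 6 called lower. Of the genes listed for spinal cord glia, Gfap was called higher and Mog was not called (log2 fold change 0.32). Olig1 and Olig2 were near 0 and Aqp4 was too low to be tested. Which cells of the ganglia held the Gfap RNA was not tested.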

Additional observations from a re-analysis of the deposited data

How the results depend on the processing

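Of 207 values of the 10 genes under alternatives, 194 kept their direction and their side of the limits for a call. Oprk1 lost its call with limma on log2(FPKM + 1), at −0.45, and with scaling to nociceptor markers, at −0.54. Without single libraries it lay between −0.76 and −0.53, with the call lost without CCI 2. Pdyn lost its call with limma on log2(FPKM + 1), at 0.35, where the pseudocount exceeds its FPKM, and lay between 2.26 and 2.88 without single libraries. Oprd1 was called with DESeq2 (−1.07), without CCI 2 (−1.42) and with rows summed (−0.76). It was not tested at a mean FPKM of at least 1. Cnr2 was called without Sham 3 (1.18). The sign turned for Oprl1 without Sham 3 (0.0042, with −0.31 as the lowest value without a library), for Penk without CCI 1 (0.13) and without Sham 1 (0.043, with −0.28 as the lowest) and for Faah without CCI 1 (0.46, with −0.72 as the lowest) and with Faahl added (0.57). The causes of these changes were not tested, and the fits without a library also have fewer samples.

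Against 0 members called higher, there was 1 with filterByExpr and 1 without a filter, where Pdyn is tested. Against 1 called lower, there were 0 with limma on log2(FPKM + 1) and 0 with scaling to nociceptor markers, 2 with DESeq2 and 2 with rows summed. DESeq2 gave 1 member at an adjusted p under 0.05, Oprk1 (0.00602), and for Pdyn its adjusted p was 0.000303. Against 0 partner genes called, there was 1 higher (Fabp5) without CCI 3, with scaling to pan-neuronal markers (0.58) and with scaling to nociceptor markers (0.64), 1 higher without a filter (Gpr55) and 1 lower without CCI 2 (Rgs17). Of the 26663 rows, 686 were called higher and 336 lower in the main fit, against 410 and 161 with limma on log2(FPKM + 1). Among the 13712 protein-coding rows fitted alone, a smaller set, the counts were 353 and 115.

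Replicate numbers did not pair the samples, as the deviations of CCI and sham libraries of the same number correlated at −0.012, −0.025 and −0.060. With a replicate block the log2 fold changes were −0.65 for Oprk1 and 2.60 for Pdyn, and the calls of the 10 genes were unchanged. The SE was largest for Faah (1.31), followed by Oprd1, Pdyn, Pomc and Cnr2 (0.43 to 0.48), which had at most 144 counts in any library.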

Other observations

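Kcnip3, singled out after its values were seen, encodes DREAM, known to bind a regulatory element of the prodynorphin gene. It lies on the same chromosome as Pdyn, at 3:120022517-120076788. It held 43.3, 84.3 and 88.0 CPM in CCI 1, 2 and 3 and 115, 133 and 121 CPM in Sham 1, 2 and 3. All CCI libraries were lower, and CCI 1, the library with the most Pdyn, was the lowest. The other CCI libraries did not follow that order, as CCI 3 held more of both genes than CCI 2. The log2 fold change was −0.78 (SE 0.26, adjusted p = 0.360 in edgeR's quasi-likelihood test), which met the limits for a call. The call was lost without CCI 1, at −0.51, under the fold limit, and without Sham 2, at −0.72, where the unadjusted p was above 0.05. A second row with the Kcnip3 symbol, on the opposite strand within the gene, had a log2 fold change of −0.64 (SE 0.17, adjusted p = 0.261 in edgeR's test). The part of Kcnip3 in the Pdyn values was not tested.

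A row without a symbol, 4552 bases past the 3′ end of Oprd1 and beyond the second Oprd1 row, held 100, 168 and 201 counts in CCI and 290, 320 and 397 counts in sham. The groups did not overlap and the log2 fold change was −1.03 (SE 0.31, adjusted p = 0.317 in edgeR's test). Whether it belongs to Oprd1 was not tested.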
